A study of Caenorhabditis elegans with 18 samples.

Results

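Caenacins are small secreted peptides of nematodes, named for their resemblance to bacteriocins, and the genes that encode them carry the symbol cnc. The description below covers 6 of them, cnc-2, cnc-4, cnc-6, cnc-7, cnc-8 and cnc-11, in worms kept in metal-contaminated soil with and without an iron treatment. They were found by symbol: each is the single gene named for 1 probe set of the array in the platform annotation, and together they make up 6 of the 25478 genes named in the table. Another 5 caenacin genes, cnc-1, cnc-3, cnc-5, cnc-9 and cnc-10, were measured as well, which brings the family on the array to 11 genes, and their values stand beside those of the 6. The 6 were chosen with earlier results of these data known, and why these and not the other 5 is not stated. The 6 probe sets carry the identifiers 18594280 (cnc-2), 18574071 (cnc-4), 18517431 (cnc-6), 18570898 (cnc-7), 18610156 (cnc-8) and 18574042 (cnc-11).

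The animals were Caenorhabditis elegans of the wild-type strain N2, young adults at collection per the labels, grown with Escherichia coli OP50 as food. All groups were exposed for 48 h at 20 °C to 0.3 g of soil polluted with zinc (4200 mg/kg), lead (2700 mg/kg) and cadmium (310 mg/kg), at 7500 to 10000 worms per well. The soil had been treated with nZVI, fine particles of metallic iron (nanoscale zero-valent iron) that are applied to bind metals in polluted ground, or had not, and is then called control soil. With sampling times of 0 days, 14 days and 4 months this gave 6 groups of 3 arrays, 18 in all, each from RNA of a whole-worm population. Control soil was contaminated too, so no group stands for unexposed worms, and the starting point of the sampling times is not stated.

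In C. elegans, caenacins belong with the nlp-29 group of neuropeptide-like proteins among the peptides that the epidermis, the tissue beneath the cuticle, makes as part of its innate defence. After fungal infection or wounding, nlp-29 and its neighbours are switched on through a p38 kinase cascade that ends at the transcription factor STA-2. For cnc-2, the induction by fungal infection depends instead on the TGF-beta ligand DBL-1, which neurons secrete and which acts on receptors in the epidermis. For the other 5 members no separate role is given here beyond membership of the family.

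Within a group the arrays had pairwise correlations of 0.970 to 0.996 over all probe sets, and their medians lay between 3.85 and 3.99 on the log2 scale. Some arrays stood apart. At 14 days, nZVI array 2 had a score of 10.5 on the first principal component (30.2% of the variance), against 59.99 and 64.2 for the other nZVI arrays of that time. Its 10 germline markers averaged 9.53 log2 units, and those of nZVI arrays 1 and 3 averaged 8.81 and 8.85. At 4 months, control arrays 1 and 3 had narrower interquartile ranges (3.80 and 3.70 log2 units) than any other array (at least 4.07). Control array 2 of that time scored -32.6 on the first component, against -70.8 and -58.7 for control arrays 1 and 3. Across arrays the intestinal markers averaged 8.32 to 9.48 log2 units, the germline markers 8.20 to 9.65 and the sperm markers 4.36 to 5.52.

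At 0 days, transcripts of all 6 caenacins were lower in nZVI soil than in control soil, by 2.42-fold for cnc-6 up to 5.42-fold for cnc-11, and no nZVI array reached the level of any control array. A probe set was called where the adjusted p of a limma fit over all 28387 probe sets was under 0.05, and 7.74% of all probe sets were called lower in this comparison. Another measure, every nZVI array below every control array, was met by the 6 caenacins and by 17.8% of all probe sets. The median difference of the 6 was -1.58 on the log2 scale, against -0.01 for all probe sets. All levels below are log2 signals, in the order of replicates 1, 2 and 3, and differences are nZVI minus control soil with the standard error of the fit.

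The signal of cnc-11 was 6.55, 6.61 and 6.13 in nZVI soil, against 8.96, 8.94 and 8.71 in control soil at 0 days. The gap between the highest nZVI array and the lowest control array was 2.10, more than the range within either soil. The difference of -2.44 ± 0.20 amounted to a 5.42-fold lower level (adjusted p = 5.2e-07). For cnc-4 the nZVI arrays read 5.66, 5.70 and 6.15, against 7.95, 7.998 and 7.98 in control soil. The control arrays of this gene lay almost on top of each other, and the nZVI arrays were well below them, at a difference of -2.14 ± 0.16 (4.40-fold lower, adjusted p = 2.1e-07).

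The other 4 members fell by smaller amounts at 0 days, without a test of the difference between genes. For cnc-8 the signal was 5.18, 5.75 and 5.25 in nZVI soil, against 7.32, 6.85 and 7.12 in control soil, a 3.25-fold lower level (-1.70 ± 0.25, adjusted p = 1.7e-04). The values of cnc-7 were 5.13, 5.17 and 4.36 in nZVI soil, against 6.65, 6.57 and 5.82 in control soil. In both soils replicate 3 of cnc-7 was the low one, and the fitted difference was -1.46 ± 0.29 (2.75-fold lower, adjusted p = 0.00203). For cnc-2, the member that DBL-1 controls during fungal infection, nZVI arrays held 7.11, 7.32 and 7.61, against 8.71, 9.08 and 8.21 in control soil. The soils were separated by 0.60 at the nearest arrays, less than the range among the control arrays, and the difference was -1.32 ± 0.27 (2.50-fold lower, adjusted p = 0.00278). For cnc-6 the arrays read 7.33, 7.61 and 7.46 in nZVI soil, against 8.47, 8.80 and 8.95 in control soil. It had the smallest difference of the 6 at this time, -1.27 ± 0.14, yet a small error (2.42-fold lower, adjusted p = 7.6e-06).

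These calls at 0 days held for all 6 genes under each of the 13 other settings tried for this comparison, leaving out any 1 of its 6 arrays included. RNA came from whole worms, so a smaller share of epidermal RNA in the whole and less caenacin RNA within the epidermis cannot be told apart.

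**Figure D1:**
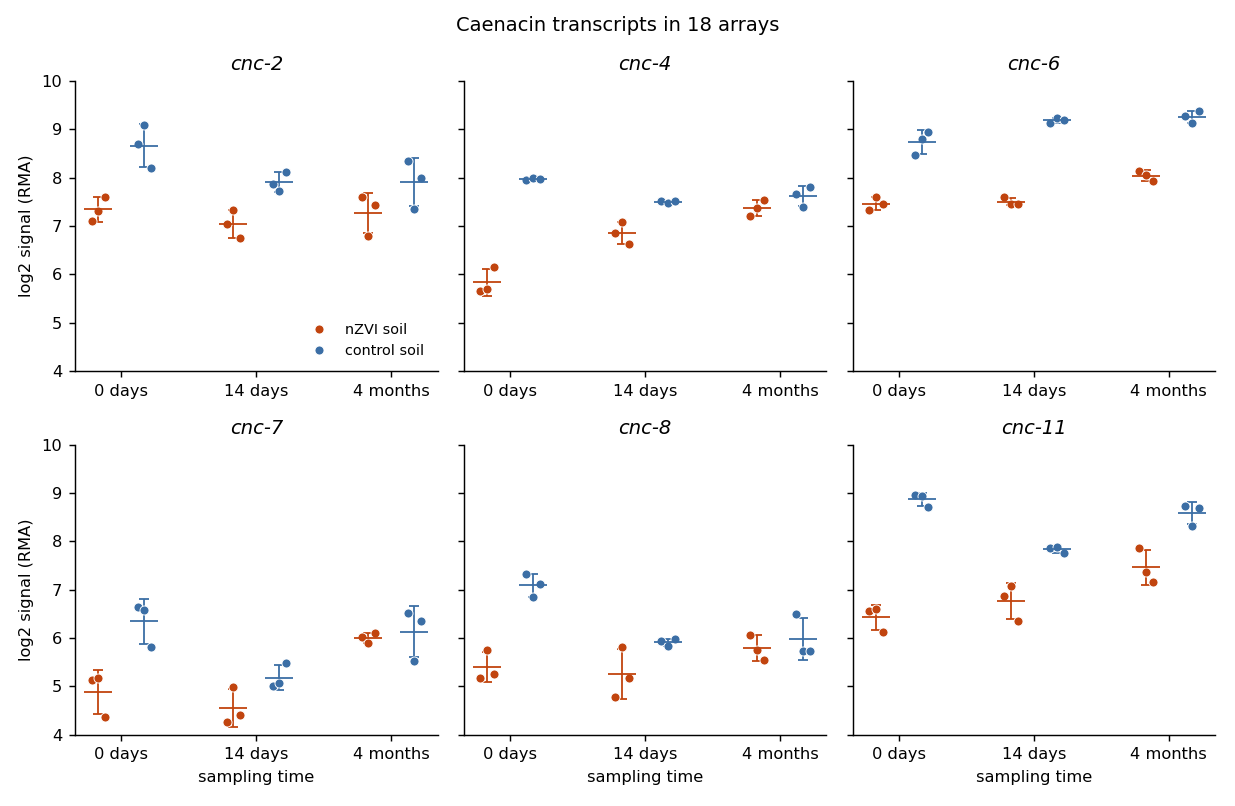
Log2 signal (RMA) of each caenacin on every array, by sampling time, with nZVI soil in orange left of control soil in blue; points are arrays, horizontal bars group means and whiskers 1 SD (n = 3). At 0 days the orange and blue points are apart for all 6 genes, and at 4 months they are apart for cnc-6 and cnc-11.

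At 14 days, cnc-6, cnc-11 and cnc-4 were lower in nZVI soil, and cnc-2, cnc-7 and cnc-8 were not called. These 3 calls of 6 compare with 5.39% of all probe sets called lower, and the median difference of the 6 was -0.76 against 0.04 for all probe sets. The signal of cnc-6 was 7.59, 7.46 and 7.47 in nZVI soil, against 9.13, 9.23 and 9.20 in control soil, the widest separation of its arrays at any time. The difference was -1.68 ± 0.14 (3.20-fold lower, adjusted p = 1.4e-06). For cnc-11 the nZVI arrays read 6.87, 7.08 and 6.36, against 7.86, 7.88 and 7.76 in control soil, again without overlap (-1.07 ± 0.20, 2.09-fold lower, adjusted p = 0.00245). The level of cnc-4 was 6.86, 7.08 and 6.64 in nZVI soil, against 7.51, 7.47 and 7.51 in control soil, a 1.56-fold lower level (-0.64 ± 0.16, adjusted p = 0.0160).

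The 3 members without a call at 14 days also had all nZVI arrays under all control arrays, as did 13.7% of all probe sets. For cnc-2 the arrays held 7.05, 7.33 and 6.75 in nZVI soil, against 7.87, 7.72 and 8.13 in control soil (-0.86, 95% interval -1.43 to -0.29, adjusted p = 0.0565). For cnc-7 they held 4.26, 4.99 and 4.41 in nZVI soil, against 5.02, 5.06 and 5.48 in control soil (-0.63, interval -1.23 to -0.03, adjusted p = 0.223). The values of cnc-8 were 4.78, 5.82 and 5.17 in nZVI soil, against 5.93, 5.84 and 5.97 in control soil (-0.65, interval -1.19 to -0.12, adjusted p = 0.135). For all 3 genes the nearest nZVI array was array 2, the one that stood apart on the first component, and for cnc-7 and cnc-8 it lay 0.0247 and 0.0192 below the lowest control array. Without that array 5 members were called lower, cnc-2 (adjusted p = 0.0419) and cnc-8 (adjusted p = 0.0192) among them. The call of cnc-4 was lost without nZVI array 1 or 3 (adjusted p = 0.0552 and 0.0871) and without control array 1 or 2 (adjusted p = 0.0528 and 0.0514).

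At 4 months, cnc-6 and cnc-11 were lower in nZVI soil and the other 4 were not called, with 2.30% of all probe sets called lower. The arrays of the soils were apart for the same 2 members, and 10.1% of all probe sets had every nZVI array below every control array. The median difference of the 6 was -0.44 against -0.03 for all probe sets. The signal of cnc-6 was 8.15, 8.06 and 7.94 in nZVI soil, against 9.27, 9.13 and 9.38 in control soil (-1.21 ± 0.14, 2.32-fold lower, adjusted p = 6.7e-05). The arrays of the 2 soils lay 0.98 apart, more than the range within either soil. For cnc-11 the values were 7.86, 7.37 and 7.16 in nZVI soil, against 8.74, 8.32 and 8.69 in control soil (-1.12 ± 0.20, 2.17-fold lower, adjusted p = 0.00347). Its arrays were separate as well, by 0.46. When only the 6 arrays of this time were fitted, cnc-11 was no longer called (adjusted p = 0.0556).

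For the other 4 members the arrays of the soils overlapped at 4 months. For cnc-2 the nZVI arrays read 7.59, 6.80 and 7.43, against 8.34, 7.36 and 8.003 in control soil (-0.63, interval -1.198 to -0.06, adjusted p = 0.169). Array 2 was the lowest in both soils, and without control array 2 the difference was called (adjusted p = 0.0283). For cnc-4 the values were 7.20, 7.37 and 7.53 in nZVI soil, against 7.66, 7.39 and 7.81 in control soil (-0.25, interval -0.59 to 0.09, adjusted p = 0.369). The values of cnc-7 were 6.02, 5.90 and 6.10 in nZVI soil, against 6.51, 5.53 and 6.36 in control soil (-0.13, interval -0.73 to 0.47, adjusted p = 0.834). Here the nZVI arrays fell inside the range of the control arrays. For cnc-8 they were 6.07, 5.76 and 5.55 in nZVI soil, against 6.49, 5.74 and 5.73 in control soil (-0.20, interval -0.73 to 0.34, adjusted p = 0.688), with control array 1 above the rest. Without control array 1, one of those with a narrow range of signals, the differences of cnc-7 and cnc-8 were 0.06 and 0.06, still uncalled. With control array 1 or control array 3 left out, cnc-6 and cnc-11 were still the 2 members called.

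Averaged over the 3 times, all 6 caenacins were lower in nZVI soil, where 9.13% of all probe sets were called lower. The mean difference ran from -0.74 ± 0.17 for cnc-7 (adjusted p = 0.00359) to -1.54 ± 0.12 for cnc-11 (adjusted p = 7.2e-08). In between were -0.85 ± 0.15 for cnc-8, -0.94 ± 0.16 for cnc-2, -1.01 ± 0.09 for cnc-4 and -1.39 ± 0.08 for cnc-6.

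The 5 caenacin genes outside the 6 behaved less uniformly. Because the 6 were chosen with earlier results of these data known, this contrast and the counts among the 6 are descriptive only. At 0 days cnc-1 (-1.01, adjusted p = 0.0219) and cnc-9 (-0.71, adjusted p = 0.0442) were also lower in nZVI soil. The differences of cnc-3 (-0.39), cnc-5 (0.21) and cnc-10 (-0.18) were not called. At 14 days cnc-9 was higher in nZVI soil, with 3.62, 3.14 and 3.72 against 2.68, 2.53 and 2.72 in control soil (0.85, adjusted p = 0.0259), where 3.60% of all probe sets were called higher. No other of the 5 was called at 14 days, and limma called none at 4 months (1 at an unadjusted p under 0.05). Across the family of 11, 8 genes were therefore called lower at 0 days, 3 at 14 days and 2 at 4 months. Of all probe sets 7.74%, 5.39% and 2.30% were called lower at these times. The signals of cnc-1, cnc-5 and cnc-9 lay between 2.35 and 4.81, on arrays with medians of 3.85 to 3.99.

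Part of the family forms a cluster in the genome. In the RefSeq annotation (WBcel235), cnc-11, cnc-1, cnc-5, cnc-4, cnc-3 and cnc-2 follow one another on chromosome V with 0 coding genes between them. Within this cluster cnc-11, cnc-1, cnc-4 and cnc-2 were lower in nZVI soil at 0 days, while cnc-5, which lies between cnc-1 and cnc-4, had a difference of 0.21 (interval -0.16 to 0.58). Both cnc-5 (2.90 to 3.94) and cnc-1 (3.08 to 4.81) had dim signals, on arrays with medians of 3.85 to 3.99. The neighbour between cnc-4 and cnc-2, cnc-3, differed by -0.39 (interval -0.99 to 0.20). Of the remaining members, cnc-7 lies elsewhere on chromosome V, cnc-6 on chromosome III and cnc-8 on chromosome X. Next to cnc-8 lies fipr-21, a gene of the fungus-induced-related peptides. Its differences were -1.21 at 0 days, -0.94 at 14 days and -0.88 at 4 months. This gene was added after its values were seen, and values of other genes flanking the members are not given. Of the 35 fip and fipr genes, 7 were higher and 4 lower in nZVI soil at 0 days. Probe sets of close relatives, such as those of the cnc genes, may cross-hybridise, which the deposited values do not resolve.

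**Figure D2:**
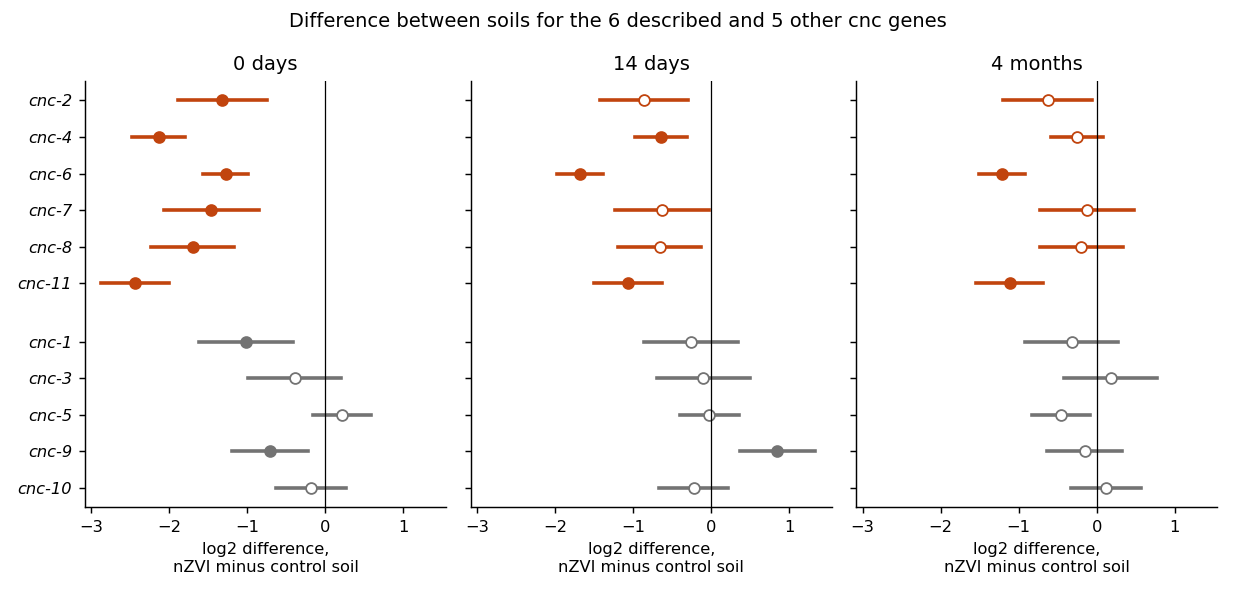
Log2 difference, nZVI minus control soil, with its 95% interval for the 6 caenacins described (orange) and the 5 other cnc genes (grey) at each time; filled points were called and open points were not. All 6 orange points are filled at 0 days, 3 at 14 days and 2 at 4 months.

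Whether the gap between the soils itself changed with time was tested as a difference of differences, where a positive value means a smaller deficit in nZVI soil at the later time. From 0 to 14 days it was called for cnc-4 (1.50 ± 0.23, adjusted p = 0.00225) and cnc-11 (1.37 ± 0.29, adjusted p = 0.0277), with 0.535% of all probe sets called in that direction. From 0 days to 4 months it was called for cnc-4 (1.89 ± 0.23, adjusted p = 1.6e-04), cnc-11 (1.32 ± 0.29, adjusted p = 0.0160) and cnc-8 (1.51 ± 0.36, adjusted p = 0.0250), with 2.96% of all probe sets. For cnc-7 the value from 0 days to 4 months was 1.33 ± 0.40 (adjusted p = 0.0729, and 0.0219 with the replicate number as a block). That of cnc-2 was 0.69 ± 0.38 (adjusted p = 0.313). For cnc-6 the difference of differences was -0.40 ± 0.19 at 14 days (adjusted p = 0.326) and 0.06 ± 0.19 at 4 months (adjusted p = 0.886), both against 0 days. Between 14 days and 4 months limma called no member (1 at an unadjusted p under 0.05), at values from -0.05 for cnc-11 to 0.50 for cnc-7, with 1.36% of all probe sets called in either direction. The call of cnc-11 from 0 to 14 days was lost without nZVI array 3 or control array 1 or 2 of 0 days, nZVI array 1 or 2 of 14 days, or any control array of 14 days (adjusted p = 0.0555 to 0.0779). That of cnc-8 from 0 days to 4 months was lost without nZVI array 1 or 3 or control array 1 or 3 of 0 days, nZVI array 1 or 2 of 4 months, or control array 3 of 4 months (adjusted p = 0.0502 to 0.0717).

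The levels within each soil are given next. A change called in 1 soil and not in the other does not place the change in that soil alone. Each exposure lasted 48 h, so the worms of different times were different animals. Sampling time therefore cannot be told apart from anything else that differed between those exposures. Comparisons within a soil reuse the same arrays and are set side by side only, and differences between genes were not tested. In nZVI soil cnc-4 averaged 5.84 ± 0.28 at 0 days, 6.86 ± 0.22 at 14 days and 7.37 ± 0.16 at 4 months (SD, n = 3 each). In control soil it averaged 7.97 ± 0.03, 7.50 ± 0.02 and 7.62 ± 0.21 at the same times. The rise in nZVI soil was called at 14 days (1.02, adjusted p = 7.9e-04) and at 4 months (1.53, adjusted p = 4.3e-06) against 0 days. In control soil the changes of cnc-4 were -0.48 (95% interval -0.81 to -0.14) and -0.35 (interval -0.69 to -0.02). Neither was called (adjusted p = 0.0609 and 0.169), though both intervals lay below 0.

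For cnc-8 the called changes lay in control soil. It averaged 5.39 ± 0.31, 5.26 ± 0.52 and 5.79 ± 0.26 in nZVI soil at 0 days, 14 days and 4 months. There the changes against 0 days were -0.13 (interval -0.67 to 0.40) and 0.40 (interval -0.13 to 0.93), not called. In control soil it averaged 7.10 ± 0.24, 5.91 ± 0.07 and 5.99 ± 0.43, with a fall at 14 days (-1.18, adjusted p = 0.00787) and at 4 months (-1.11, adjusted p = 0.0103) against 0 days. For cnc-11 changes were called in both soils. It averaged 6.43 ± 0.26, 6.77 ± 0.37 and 7.46 ± 0.36 in nZVI soil, and 8.87 ± 0.14, 7.84 ± 0.07 and 8.58 ± 0.23 in control soil. In nZVI soil it was higher at 4 months than at 0 days (1.03, adjusted p = 0.00159) and than at 14 days (0.69, adjusted p = 0.0438). In control soil it fell at 14 days against 0 days (-1.03, adjusted p = 0.00537) and was higher at 4 months than at 14 days (0.74, adjusted p = 0.0177). The rise from 14 days to 4 months was called in 2 of 6 fits without 1 array in nZVI soil and in 3 of 6 in control soil.

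The level of cnc-6, lower in nZVI soil at each time, was higher at 4 months than at 0 days in both soils. It averaged 7.47 ± 0.14, 7.51 ± 0.08 and 8.05 ± 0.11 in nZVI soil, and 8.74 ± 0.24, 9.18 ± 0.05 and 9.26 ± 0.13 in control soil. The rise was 0.58 in nZVI soil (adjusted p = 0.00559) and 0.52 in control soil (adjusted p = 0.0242). The call in nZVI soil was made in 6 of 6 fits without 1 array, and that in control soil in 2 of 6. The rise in control soil was lost without control array 1 or 2 of 0 days or control array 1 or 3 of 4 months (adjusted p = 0.0524 to 0.125). The lowest means of cnc-7 in each soil were those of 14 days, with 4.89 ± 0.45, 4.56 ± 0.39 and 6.005 ± 0.10 in nZVI soil, and 6.35 ± 0.46, 5.18 ± 0.25 and 6.13 ± 0.53 in control soil. Against 0 days, cnc-7 was higher at 4 months in nZVI soil (1.12, adjusted p = 0.00914). Its rise between 14 days and 4 months was called in nZVI soil (1.45, adjusted p = 0.00485) and in control soil (0.95, adjusted p = 0.0276). For cnc-2 no change with time was called in either soil, at 7.34 ± 0.25, 7.04 ± 0.29 and 7.27 ± 0.42 in nZVI soil, and 8.66 ± 0.44, 7.90 ± 0.21 and 7.90 ± 0.50 in control soil.

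Counted over the 6 members, 14 days against 0 days gave 1 rise in nZVI soil, where 4.13% of all probe sets rose. In control soil it gave 1 rise (cnc-6, 0.44) and 3 falls (cnc-7, cnc-8 and cnc-11, the first by -1.16), where 5.80% rose and 6.08% fell. At 4 months against 0 days there were 4 rises in nZVI soil (12.0% of all probe sets rose), and 1 rise and 1 fall in control soil (3.38% rose and 6.33% fell). At 4 months against 14 days there were 3 rises in nZVI soil (cnc-6, cnc-7 and cnc-11, where 4.21% of all probe sets rose). In control soil there were 2 (cnc-7 and cnc-11, where 8.90% rose). At 4 months against 14 days in nZVI soil, 5 members were called without nZVI array 2 of 14 days, and 1 without array 1 or 3 of 14 days or array 1 or 2 of 4 months. At 4 months against 0 days in nZVI soil, the rise of cnc-7 was lost without nZVI array 3 of 0 days (adjusted p = 0.0557). At 14 days against 0 days in control soil, 2 members were called without control array 1 or 2 of 0 or 14 days, and 5 without control array 3 of 0 days. In the same soil, at 4 months against 0 days, no member was called without control array 1 of 0 days or control array 3 of 4 months, and at 4 months against 14 days none was called without control array 1 or 3 of 4 months.

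Tissue markers changed within the soils too, and their part in the members' changes with time was not tested. At 4 months against 0 days in nZVI soil, where 4 caenacins rose, 10 of 10 germline markers rose, with list means of 9.43 to 9.65 at 4 months and 8.20 to 8.71 at 0 days. In the same comparison 4 of 10 epidermal markers and 2 of 6 sperm markers rose, and 5 of 8 neuronal markers and 1 of 7 intestinal markers fell. Of 8 muscle markers 2 rose and 2 fell. Of all probe sets 12.0% rose in this comparison, and the share that fell is not given here. The epidermal list mean was 7.93 to 8.07 at 4 months and 6.81 to 7.11 at 0 days. In nZVI soil at 4 months against 14 days, where 3 caenacins rose, 4 of 6 sperm and 2 of 10 germline markers rose. Of 10 epidermal markers 1 fell, and of 7 intestinal markers 1 rose and 1 fell, where 4.21% of all probe sets rose. At 14 days against 0 days in nZVI soil, 4 of 10 germline, 4 of 10 epidermal and 2 of 8 muscle markers rose. Of all probe sets 4.13% rose, and 1 muscle and 1 of 8 neuronal markers fell. In control soil, where 3 caenacins fell, none of the germline and 2 of the epidermal markers rose. There 1 of 7 intestinal and 1 of 8 neuronal markers rose too, and 2 of 6 sperm and 2 of 8 muscle markers fell. Of all probe sets 5.80% rose and 6.08% fell in that comparison. In control soil at 4 months against 0 days, none of the epidermal or germline markers was called and 2 of 8 neuronal markers fell. Of 7 intestinal markers 1 fell, and of 8 muscle markers 1 rose and 1 fell. Of all probe sets 3.38% rose and 6.33% fell there. Between 14 days and 4 months in control soil, 3 of 10 germline and 1 of 6 sperm markers rose, where 8.90% of all probe sets rose. Of 10 epidermal markers 1 rose and 1 fell, and of 8 muscle markers 1 rose and 1 fell. In that comparison 5 of 8 neuronal and 3 of 7 intestinal markers fell, at list medians of -0.80 and -0.53. The median of all probe sets was 0.11, and the share that fell is not given here.

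Ordered by group mean, control soil at 0 days held the highest level of every member except cnc-6, which was highest in control soil at 4 months. The lowest group was nZVI soil at 0 days for cnc-4, cnc-6 and cnc-11, and nZVI soil at 14 days for cnc-2, cnc-7 and cnc-8. Many neighbours in these orders did not differ beyond the spread of their arrays. For cnc-2 only the step below control soil at 0 days separated arrays without overlap, a gap of 0.76 between means. For cnc-8 the same step, of 1.11, was the only one. For cnc-7 it was the step of 0.82 from nZVI soil at 4 months down to control soil at 14 days. For each member but cnc-7, all 3 control means lay above all 3 nZVI means. Only for cnc-6 were the arrays of these 2 sets of groups apart as well, with nZVI soil at 4 months and control soil at 0 days 0.69 apart between means.

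Across the 18 arrays every pair of members had a positive correlation. Pearson's r over the 15 pairs ran from 0.536 to 0.860 with a median of 0.747, as a description of arrays that share their soils and times. Because the 6 were chosen with earlier results of these data known, these values are descriptive only. The highest r was that of cnc-4 and cnc-11, both of the chromosome V cluster. With the other cnc genes of that cluster, cnc-4 had an r of 0.638 (cnc-1), -0.032 (cnc-3) and -0.117 (cnc-5). With cnc-9 and cnc-10, outside it, r was -0.037 and -0.199. With each group's mean removed the range was -0.155 to 0.592 (median 0.203, 13 of 15 pairs above 0), and for cnc-4 and cnc-11 r was -0.0306. Outside the family, the genes most like the mean of the 6 members over the 18 arrays were T10F2.2 (r = 0.958), Y37E11B.7 (0.952), bag-1 (0.951), C37A5.3 (0.950) and F26G1.2 (0.948). With group means removed they were col-142 (r = 0.942), Y50D4A.3 (0.921), Y54E5A.5 (0.910), F58A4.17 (0.903) and R07D5.9 (0.901). Taken singly, cnc-4 was most like nlp-29 (r = 0.957), cnc-6 like gst-16 (0.955), cnc-2 like K10H10.14 (0.938), cnc-7 like mrpl-51 (0.916), cnc-8 like VF15C11L.1 (0.906) and cnc-11 like T10F2.2 (0.959).

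Of 13 measured genes of the DBL-1 pathway, on which induction of cnc-2 by fungus depends, 6 were higher in nZVI soil at 0 days and 1 was lower, where 8.22% of all probe sets were called higher and 7.74% lower. The ligand gene dbl-1 was higher by 0.59 ± 0.17 (adjusted p = 0.0290) and the type I receptor gene sma-6 by 0.67 ± 0.17 (adjusted p = 0.0143). The type II receptor gene daf-4 (0.94), the Smad gene sma-2 (0.68) and sma-10, which encodes a membrane protein of the pathway (1.16), were higher too. The exception was lon-1, an epidermal gene that DBL-1 signalling is known to repress, at -2.13 ± 0.19 (adjusted p = 1.0e-06). At 14 days lon-1 alone of the 13 was called (-1.09, lower), and at 4 months sma-10 alone (0.80, higher, with 4.77% of all probe sets called higher). The differences of dbl-1 were then -0.13 and 0.28, and those of sma-6 0.04 and 0.50, none called.

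Of 21 genes of the epidermal p38 and STA-2 cascade, 6 were higher and 4 lower in nZVI soil at 0 days, 6 lower at 14 days, and 1 higher at 4 months. Of all probe sets 8.22% were called higher and 7.74% lower at 0 days, 5.39% lower at 14 days and 4.77% higher at 4 months, so that the count at 4 months was near the share of all probe sets. The kinase-like gene nipi-3, which is required for nlp-29 induction by fungus, was lower at 0 days (-0.94 ± 0.20, adjusted p = 0.00377) and 14 days (-1.196 ± 0.20, adjusted p = 7.6e-04). At 4 months its difference was -0.11, not called. The transcription factor gene cebp-1 (-1.11 at 0 days, -1.09 at 14 days) and the phosphatase gene vhp-1 (-0.87 and -1.23), a negative regulator of the kinase cascade, were lower at the same times. For sta-2 the difference was -0.51 at 0 days (adjusted p = 0.0974), -0.92 at 14 days (adjusted p = 0.00652) and -0.47 at 4 months (adjusted p = 0.166), called lower at 14 days. The kinase gene pmk-1 (0.14, -0.31 and 0.11) and the transporter gene snf-12 (0.30, -0.36 and 0.11) were not called at any of these times. The GATA factor gene elt-3, which is also counted among the epidermal markers, was higher at 0 days (1.17).

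Of 11 nlp peptide genes, 6 were lower in nZVI soil at 0 days, 3 at 14 days and 0 at 4 months, and none was called higher, at medians of -1.04, -0.50 and -0.12. For nlp-29, the gene most like cnc-4, the difference was -2.87 ± 0.23 at 0 days (7.31-fold lower, adjusted p = 3.2e-07) and -1.04 ± 0.23 at 14 days (2.05-fold lower, adjusted p = 0.00663). At 4 months it was -0.19 (adjusted p = 0.655). At 0 days nlp-33 (-1.83), nlp-30 (-1.82) and nlp-32 (-1.18) were lower as well, and at 14 days nlp-27 (-0.88) and nlp-34 (-0.65). The 35 fip and fipr genes, another family of small peptides, had 7 genes higher and 4 lower at 0 days, 4 lower at 14 days, and 1 higher and 2 lower at 4 months. The shares of all probe sets were 8.22% higher and 7.74% lower at 0 days, 5.39% lower at 14 days, and 4.77% higher and 2.30% lower at 4 months. The differences ranged at 0 days from fipr-22 (-3.69), fip-6 (-2.59) and fipr-26 (-1.78) to fipr-25 (4.72). None of 7 genes of the glycerol response to osmotic stress, which also involves the epidermis, was called by limma at any time, and at an unadjusted p under 0.05 there were 1, 1 and 0.

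**Figure D3:**
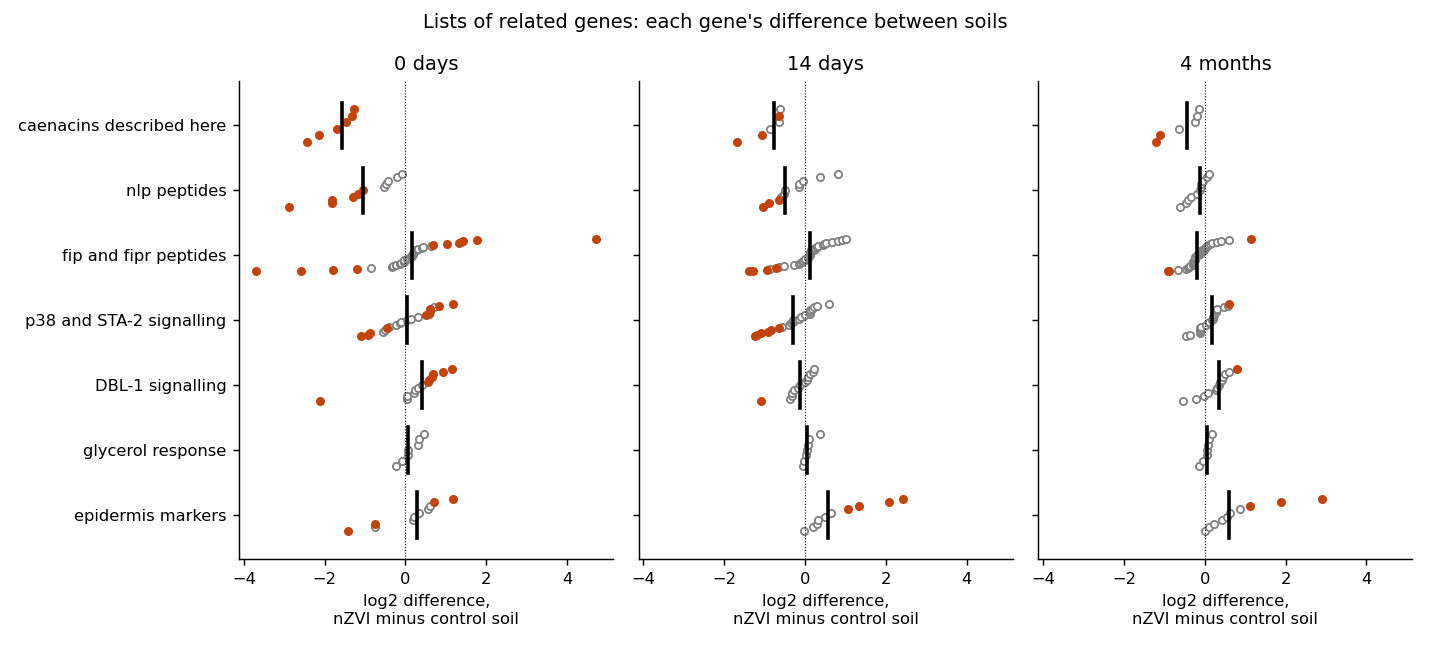
Log2 difference, nZVI minus control soil, of each gene in the caenacin set and in 6 related lists, at each time; filled points were called, open points were not, and the vertical bar is the list's median. Caenacins and nlp peptides lie mostly left of 0 at 0 and 14 days, while the fip and fipr peptides spread to both sides.

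Markers of tissues also differed between the soils, and their part in the caenacin differences was not tested. Of all probe sets, 8.22% were called higher and 7.74% lower in nZVI soil at 0 days. The shares were 3.60% higher and 5.39% lower at 14 days, and 4.77% higher and 2.30% lower at 4 months. At 0 days, where all 6 caenacins were lower, the 10 epidermal markers averaged 6.81 to 7.11 log2 units in the nZVI arrays and 6.89 to 6.93 in the control arrays. Of these, elt-3 and sqt-3 were higher, and dpy-13 and rol-6 lower. At 14 days the epidermal mean was 7.40 to 8.17 in nZVI soil and 6.95 to 7.07 in control soil, with 4 markers higher, the adult collagen gene col-19 (2.42) and bli-1 (2.06) among them. At 4 months it was 7.93 to 8.07 in nZVI soil and 7.07 to 7.22 in control soil, with 3 higher. No epidermal marker was called lower at 14 days or 4 months, and the list's median differences were 0.56 and 0.59. The share of epidermal RNA in the samples was not measured.

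Germline markers were lower at 0 days in 3 of 10 genes, at a mean of 8.20 to 8.71 in nZVI soil and 8.96 to 9.18 in control soil, and none of them was called at 14 days or 4 months (1 and 0 at an unadjusted p under 0.05). Of 7 intestinal markers, 4, 3 and 3 were higher in nZVI soil at 0 days, 14 days and 4 months, and their mean at 0 days was 9.30 to 9.48 in nZVI soil and 8.61 to 8.90 in control soil. Of 8 body wall muscle markers, 2, 3 and 2 were higher at the same times, and none lower. None of 8 neuronal markers was called by limma (2, 3 and 0 at an unadjusted p under 0.05), and of 6 sperm markers 1 was higher, at 4 months.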

How the data were processed

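The arrays, GeneChip C. elegans Gene 1.0 ST per the series text, held 1 RNA sample each. The authors deposited 1 table of log2 signals for 28387 probe sets on 18 arrays. The submitters' processing notes name RMA, which corrects background, equalises the distributions of arrays and summarises probes, and the Transcriptome Analysis Console. Neither versions nor a genome build were given in the sources used here. A shift shared by most genes would therefore not appear. Of the probe sets, 25546 were annotated to 1 gene symbol by the platform table, 646 to several and 2195 to none, and 25495 matched RefSeq through the Entrez identifier. No sequences of the members are shown.

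Differences were fitted with limma 3.58.1 (R 4.3.3) with 1 coefficient per group over 18 arrays, for 13 comparisons, two-sided, with Benjamini-Hochberg adjustment over all probe sets, and called at an adjusted p under 0.05. On data simulated for the 0-day comparison over 28387 probe sets, 28187 were left unchanged. Of 50 probe sets changed by 0.5 log2 units 2% were called, with 60% at 1, 96% at 2 and 100% at 3. The real comparison called more probe sets (7.74% lower and 8.22% higher), so these rates need not hold for the fits reported. With 3 arrays per group, that number bounds the precision. The labels do not say that replicates came from separate cultures, so p-values measure the spread between these arrays, which may be technical. No pair of arrays shared more than 0.109% of values.

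Members and lists were chosen with earlier results of these data known. Named were all members, up to 4 called genes with the smallest p from each related list and nZVI comparison, always dbl-1, sma-6, sta-2, snf-12, pmk-1, nipi-3 and nlp-29, and the genes with the highest correlation to the members; cnc genes outside the 6, fipr-21, lon-1 at 4 months and the tissue markers named were added after their values were seen. Same-numbered arrays of the 2 soils were paired by the labels' replicate numbers only. Their deviations from group means correlated at 0.0224 to 0.226 at 0 days, 0.0261 to 0.155 at 14 days and 0.104 to 0.374 at 4 months. Arrays with different numbers gave -0.194 to 0.125, -0.119 to 0.0637 and -0.336 to 0.103 at the same times. The main fit did not use this pairing. Alternatives were leaving out each array, a replicate block, centring on array medians, a filter on dim probe sets (a group mean of at least 4), a fit of only the groups compared, eBayes with trend and robust options, array weights, and a rule of an unadjusted p under 0.05 with a 2-fold difference.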

Additional observations from a re-analysis of the deposited data

Results flagged for a closer look

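The difference between nZVI and control soil itself differed between times, by limma's test of the difference of differences, for 3 of the 6 caenacins. For cnc-4 the nZVI effect at 14 days minus that at 0 days was 1.50 ± 0.23 (adjusted p = 0.00225), and at 4 months minus 0 days it was 1.89 ± 0.23 (adjusted p = 1.6e-04). Both values of cnc-4 were called in each of the 12 fits that left out 1 array. For cnc-11 they were 1.37 ± 0.29 (adjusted p = 0.0277) and 1.32 ± 0.29 (adjusted p = 0.0160). The 14-day value of cnc-11 was called in 4 of 12 such fits and the 4-month value in 12 of 12. For cnc-8 the value at 4 months was 1.51 ± 0.36 (adjusted p = 0.0250), called in 5 of 12 such fits. The values against 0 days share the same 6 arrays of 0 days.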

How the results depend on the processing

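At 0 days and averaged over times, all 6 caenacins were called lower without any 1 array (6 to 6), and at 0 days under the 7 other settings too. In the average, 3 were called under the rule of a 2-fold difference with an unadjusted p under 0.05. At 14 days array weights gave 6 calls and fits without 1 array 2 to 5, and at 4 months a fit of only the groups compared gave 1 and fits without 1 array 2 to 3. Of the 13 other settings at 14 days, cnc-2 was called in 6, only 1 of them a fit without 1 array. In the same settings cnc-8 was called in 2 and cnc-7 in 1. The differences of differences gave 1 to 2 calls without 1 array (14 days minus 0 days), 2 to 3 (4 months minus 0 days) and 0 to 0 (4 months minus 14 days). Within nZVI soil, 14 days against 0 days gave 1 to 1, 4 months against 0 days 3 to 4, and 4 months against 14 days 1 to 5; the last gave 1 under the 2-fold rule, 1 with only the groups compared and 5 with array weights. Within control soil, 14 days against 0 days gave 2 to 5 and 4 months against 0 days 0 to 3, with 1 under the 2-fold rule and 0 with only the groups compared for that second comparison; 4 months against 14 days gave 0 to 2, 0 under the 2-fold rule and 1 with only the groups compared. With the replicate block the counts for nZVI against control were 6 at 0 days, 4 at 14 days (cnc-2 added, adjusted p = 0.0349), 2 at 4 months and 6 in the average; cnc-7 was added to the difference of differences at 4 months minus 0 days (adjusted p = 0.0219), and the block changed no other call of a member. Values that changed sign were uncalled on both sides. For cnc-2, control soil at 4 months against 14 days was 0.0186 with centred arrays, 0.19 with array weights and -0.22 to 0.27 without 1 array; the effect of cnc-6 at 4 months minus 0 days was -0.0177 with array weights and -0.0446 to 0.19 without 1 array. Without 1 array, the range was -0.43 to 0.0621 for cnc-7 and -0.33 to 0.0554 for cnc-8 at 4 months, -0.26 to 0.10 for cnc-11 and -0.0384 to 0.47 for cnc-2 in the effect at 4 months minus 14 days, -0.18 to 0.20 for cnc-8 in control soil at 4 months against 14 days, -0.48 to 0.0894 for cnc-7 in control soil at 4 months against 0 days, -0.0281 to 0.11 for cnc-6 and -0.42 to 0.10 for cnc-8 in nZVI soil at 14 days against 0 days, and -0.23 to 0.17 for cnc-2 in nZVI soil at 4 months against 0 days. Among all probe sets, array weights called 6846 at 14 days and 3394 at 4 months against 2552 and 2009, a fit of only the groups compared called 382 at 4 months, and the 2-fold rule called 1827, 1332 and 1292 at the 3 times. Fits without 1 array called as few as 2826 at 0 days, 1562 at 14 days and 773 at 4 months, and 5415 without control array 2 of 4 months. The cause of these changes was not tested.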
